A study of Mus musculus with 40 samples.

Results

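Adding Flt3-ITD to NHD13 was examined in hematopoietic progenitors of 14-day-old (P14) mice. The comparison sets 4 libraries carrying both Flt3-ITD and NHD13 against 4 libraries carrying NHD13 alone, which are 8 of the 40 samples of the series and were taken by their genotype and age labels. The first group has the genotype FLT3-ITD/NUP98-HOXD13 in the labels and the second NUP98-HOXD13. Both groups therefore carry the NUP98-HOXD13 transgene, and the comparison has no library in which that fusion is absent. The remaining P14 groups, with 4 libraries each, are Flt3-ITD, wild type, Flt3-ITD with Runx1 heterozygosity, and Runx1 heterozygosity alone. They entered the model to estimate the spread between libraries and are named only where the effect of Flt3-ITD is set beside its effect on another background. The promoter that drives the transgene and the way the mice were pooled or sorted are not given in the sources used here. The labels do not say whether the libraries of a group came from separate animals, so every p-value measures the spread between these libraries, part of which may be technical.

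FLT3 is a receptor tyrosine kinase of early progenitors, and an internal tandem duplication (ITD) in its juxtamembrane region makes it signal without its ligand. The mutant receptor is known for activating STAT5 as well as the RAS and MAPK pathway, and it is among the most frequent lesions of acute myeloid leukemia. NUP98-HOXD13 fuses a nuclear pore protein to a homeobox transcription factor. In mice it keeps HOX genes active and gives a myelodysplastic disease that can pass into leukemia, and activating FLT3 mutations are known to cooperate with NUP98 fusions in that passage.

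Of 14394 genes tested with edgeR's quasi-likelihood test, 898 passed a Benjamini-Hochberg adjusted p under 0.05, which is 6.24% of the genes tested. In the progenitors with Flt3-ITD and NHD13, 382 of them (2.65%) were higher and 516 (3.58%) were lower than in those with NHD13 alone. These 2 shares are the background for the counts of list members given below. The median log2 fold change of all genes was 0.00, so shifts of a gene list can be read against a centre at zero. The libraries held 16.6 to 26.3 M counts with Flt3-ITD and NHD13 and 18.1 to 26.3 M with NHD13. Mitochondrial genes took 1.28 to 1.97% of the counts with Flt3-ITD and NHD13 and 1.08 to 1.76% with NHD13. The first principal component of the 8 libraries, with 32.2% of the variance, separated the groups, at 23.5 to 29.9 with Flt3-ITD and NHD13 and at -30.3 to -24.6 with NHD13. Library 1 with Flt3-ITD and NHD13 stood apart on the second component, at -46.1 against 4.4 to 18.6 for the other 3 of its group. Without it 880 genes passed, of which 740 were among the 898. In each group 1 of the 4 libraries was female by its Xist and Y-linked reads. The progenitor genes Kit, Cd34 and Ptprc were abundant in every library, with Cd34 at 971 to 1116 CPM (counts scaled to library size) with Flt3-ITD and NHD13 and at 1035 to 1331 CPM with NHD13. Progenitor genes were not all at like levels in the groups. As given below, Kit and Flt3 were lower and Spi1 higher with Flt3-ITD and NHD13, and Ly6a did not pass.

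The genes that define the genotypes were read first. Hoxd13, the homeobox part of the fusion, had 57, 59, 45 and 55 reads with Flt3-ITD and NHD13 and 73, 89, 105 and 75 reads with NHD13, against 0, 0, 1 and 0 reads in wild type. Its reads were thus present in all 8 libraries compared and near absent in wild type. Every library with the mutation held fewer Hoxd13 reads than any library with NHD13 alone. The level did not pass the test between the 2 groups (log2 fold change -0.61 ± 0.32 SE, edgeR adjusted p = 0.319). The log2 fold change stayed negative in all 8 fits without 1 library (-0.80 to -0.52), so like levels of the fusion are not shown. Flt3 itself stood at 616, 634, 693 and 658 CPM with Flt3-ITD and NHD13 and at 863, 1087, 1066 and 1055 CPM with NHD13. The groups did not overlap, and Flt3 was lower with the mutation (-0.65 ± 0.09, edgeR adjusted p = 7.9e-06). A count per gene does not tell the mutant from the normal allele.

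Known targets of STAT5 and a cell cycle inhibitor were among the genes with the largest increases. The 12 largest increases and the 12 largest decreases were named only where the groups did not overlap. For these genes the lack of overlap follows from the choice and adds no support to the test. Socs2, a STAT5 target that restrains cytokine receptors (chr10:95385362-95417180, minus strand, GRCm38), stood at 146, 177, 214 and 194 CPM with Flt3-ITD and NHD13, against 4.8, 6.9, 1.7 and 4.4 CPM with NHD13. Every library with the mutation lay far above every library without it, and the log2 fold change was 5.37 ± 0.26 (edgeR adjusted p = 1.2e-11). Ifitm1, an interferon-inducible membrane protein also high in stem cells (chr7:140967221-140969825), stood at 563, 635, 729 and 751 CPM with Flt3-ITD and NHD13 and at 55.2, 42.0, 46.5 and 43.5 CPM with NHD13. The groups were again far apart, with a log2 fold change of 3.84 ± 0.12 (edgeR adjusted p = 1.6e-19). Id1, an inhibitor of basic helix-loop-helix factors, averaged 15.7 ± 3.5 CPM with Flt3-ITD and NHD13 and 1.66 ± 0.36 CPM with NHD13 (SD, n = 4 each). The cell cycle inhibitor Cdkn1a (p21) averaged 19.4 ± 1.4 CPM with Flt3-ITD and NHD13 and 2.80 ± 0.56 CPM with NHD13, a log2 fold change of 2.80 ± 0.21.

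Further genes with large increases were Ikzf4, a zinc-finger repressor of the Ikaros family (2.92 ± 0.26), the myosin light chain gene Myl10 (2.98 ± 0.33), Prr5l, which binds the mTORC2 kinase complex (2.28 ± 0.22), and the RAB family gene Rab44 (2.24 ± 0.26). Kcnk5, a potassium channel, stood at 56.8, 59.2, 62.7 and 60.6 CPM with Flt3-ITD and NHD13 and at 13.1, 15.3, 16.3 and 14.98 CPM with NHD13 (2.0 ± 0.10, edgeR adjusted p = 5.3e-14). Pdcd1, which encodes the checkpoint receptor PD-1, stood at 20.9, 14.4, 13.5 and 16.3 CPM with Flt3-ITD and NHD13 and at 4.4, 5.6, 4.2 and 3.4 CPM with NHD13. The log2 fold change of Pdcd1 was 1.88 ± 0.39 (edgeR adjusted p = 0.0030). Ly6d, a marker of B-lymphoid commitment, also had a large increase (2.69 ± 0.74, edgeR adjusted p = 0.033), but library 2 with NHD13 held 0.38 CPM against 2.92 to 4.0 CPM in the others of its group, and the call was lost in 6 of the 8 fits that left out 1 library.

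The STAT5 targets were described from a list of 17 genes, all of which were tested. Of these, 5 rose and 2 fell, and the median log2 fold change was 0.40, against 0.00 over all genes. The 5 that rose were Socs2 and Id1 above, Cish, another cytokine-inducible inhibitor of cytokine signaling, and the survival kinases Pim1 and Pim2. Cish (chr9:107296026-107302784) stood at 55.4, 51.1, 60.0 and 65.3 CPM with Flt3-ITD and NHD13, against 15.6, 18.9, 17.6 and 18.01 CPM with NHD13 (1.72 ± 0.15, edgeR adjusted p = 5.8e-09). Pim1 stood at 243, 175, 214 and 183 CPM with Flt3-ITD and NHD13 and at 88.1, 69.9, 68.0 and 89.1 CPM with NHD13 (1.37 ± 0.15). Both genes separated the groups completely. Pim2 averaged 20.7 ± 3.7 CPM with Flt3-ITD and NHD13 and 8.65 ± 2.09 CPM with NHD13 (1.26 ± 0.19).

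The members that fell were Bcl6 and Ccnd1. Bcl6, a transcriptional repressor that STAT5 is known to repress (chr16:23965052-23988852, minus strand), stood at 0.06, 0.43, 0.38 and 0.68 CPM with Flt3-ITD and NHD13 and at 2.76, 2.52, 3.15 and 2.13 CPM with NHD13 (-2.68 ± 0.39, edgeR adjusted p = 3.0e-05). Ccnd1, which encodes the G1 cyclin D1, averaged 13.71 ± 2.89 CPM with Flt3-ITD and NHD13 and 36.8 ± 1.9 CPM with NHD13 (-1.43 ± 0.23, edgeR adjusted p = 0.00017). The list held 5 members higher and 2 lower in every alternative tried, apart from 6 higher when the 8 libraries were fitted alone. The other inhibitors of the SOCS family were low, and neither Socs1 (1.16 ± 0.52, edgeR adjusted p = 0.221) nor Socs3 (1.07 ± 0.46, adjusted p = 0.203) passed, although both lay above NHD13 in every library.

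The promoter windows of Cish and Bcl6 are shown because these are STAT5 targets that moved in opposite directions. They run from 250 bases before to 50 bases after the start of a RefSeq transcript on GRCm38.p6, and capitals mark TTCNNNGAA, the palindrome bound by STAT factors, read on both strands. The first lies at chr9:107296409-107296708 on the plus strand and the second at chr16:23981234-23981533 on the minus strand, one of 2 Bcl6 windows.
Cish: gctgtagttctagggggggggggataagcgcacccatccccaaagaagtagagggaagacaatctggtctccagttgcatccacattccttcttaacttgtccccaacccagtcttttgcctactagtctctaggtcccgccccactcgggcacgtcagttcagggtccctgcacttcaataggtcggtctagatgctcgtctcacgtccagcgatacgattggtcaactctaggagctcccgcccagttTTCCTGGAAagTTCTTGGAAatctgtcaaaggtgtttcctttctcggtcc
Bcl6: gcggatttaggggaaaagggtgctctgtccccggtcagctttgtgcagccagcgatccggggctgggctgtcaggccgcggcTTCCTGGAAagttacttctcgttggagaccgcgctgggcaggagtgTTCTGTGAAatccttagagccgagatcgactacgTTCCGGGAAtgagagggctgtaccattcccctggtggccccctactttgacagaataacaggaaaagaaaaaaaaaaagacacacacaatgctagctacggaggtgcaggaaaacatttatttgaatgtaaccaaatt
The Cish window holds 2 matches and this Bcl6 window 3, none overlapping. The other Bcl6 window holds 1 match, and the one with more matches is shown. Of 32851 such windows of all genes, 2726 (8.3%) held at least 1 match. On the STAT5 list, 11 of 17 genes had a window, and 5 of their 16 windows (31.2%) held a match. These belong to 4 of those 11 genes (Bcl6, Cish, Lta and Socs3). The list is made of known STAT5 targets, so this share describes the list and not the effect of Flt3-ITD. A match is a run of letters and does not show binding. Socs2 and Id1 had no window in the table.

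**Figure D1:**
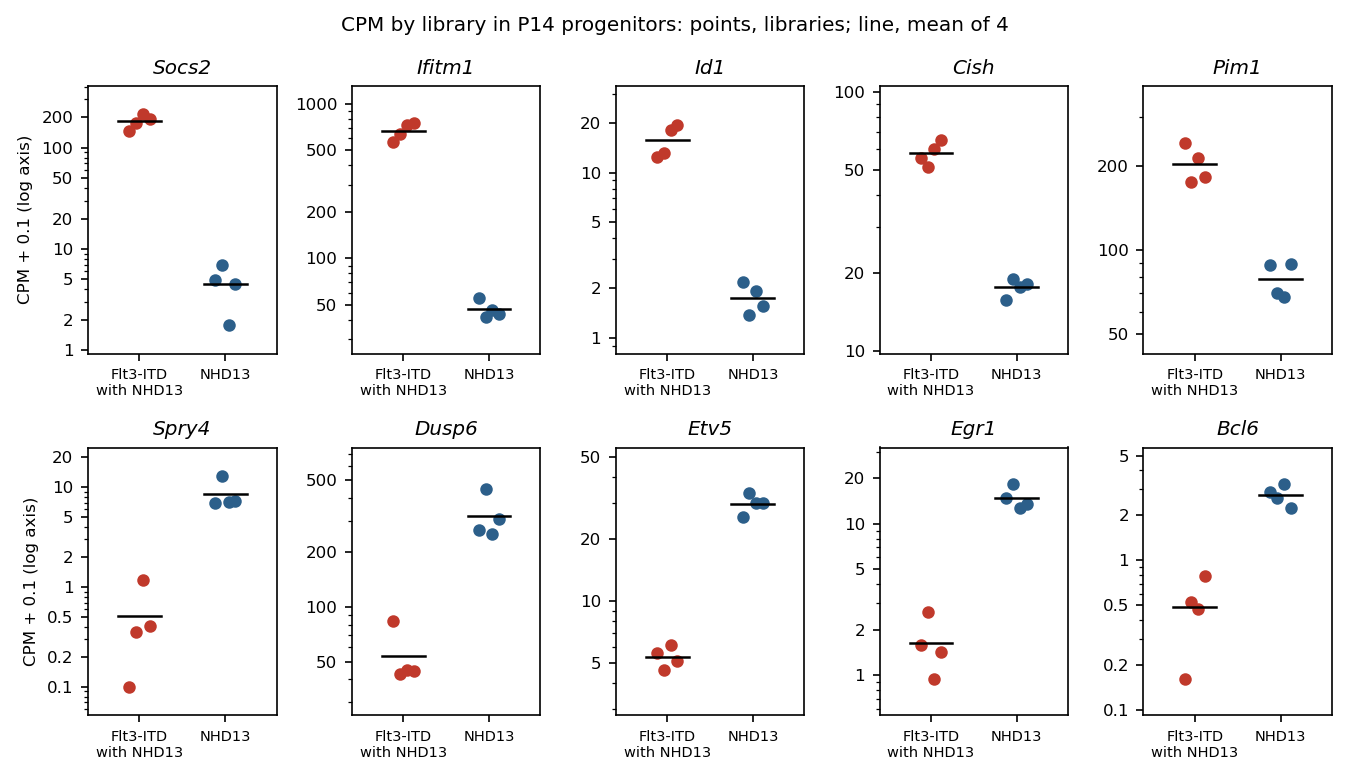
CPM plus 0.1 on a log axis for 10 genes in each of the 4 libraries with Flt3-ITD and NHD13 (left) and the 4 with NHD13 (right), where points are libraries and lines are means of 4. Socs2, Ifitm1, Id1, Cish and Pim1 lie higher with the mutation in every library, and Spry4, Dusp6, Etv5, Egr1 and Bcl6 lie lower in every library.

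Feedback genes of the MAPK pathway fell. Of 13 genes on the list 12 were tested, 7 fell and 1 rose, with a median log2 fold change of -0.91. Sprouty and SPRED proteins inhibit RAS signaling, DUSP6 removes phosphate from ERK, and ETV5 is an ETS factor induced by ERK. Spry4 stood at 0, 0.26, 1.08 and 0.30 CPM with Flt3-ITD and NHD13 and at 6.91, 12.99, 6.95 and 7.12 CPM with NHD13 (-4.31 ± 0.54, edgeR adjusted p = 5.5e-06). Dusp6 stood at 83.5, 42.8, 44.8 and 44.5 CPM with Flt3-ITD and NHD13 and at 267, 449, 254 and 306 CPM with NHD13 (-2.57 ± 0.27, edgeR adjusted p = 2.7e-06). In both genes all 4 libraries with the mutation were below all 4 without it, and the library with 83.5 CPM of Dusp6 was the one that stood apart on the second component. Etv5 averaged 5.27 ± 0.63 CPM with Flt3-ITD and NHD13 and 29.6 ± 3.2 CPM with NHD13 (-2.49 ± 0.24, edgeR adjusted p = 6.1e-08).

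Spry2 (-0.96 ± 0.25), Spred1 (-0.46 ± 0.13), Spred2 (-0.85 ± 0.23) and Ccnd1, which is on both lists, completed the 7 that fell. Dusp5, a nuclear ERK phosphatase, was the member that rose, with 8.2, 8.6, 7.8 and 9.3 CPM with Flt3-ITD and NHD13 and 4.4, 5.2, 5.9 and 5.2 CPM with NHD13 (0.71 ± 0.20, edgeR adjusted p = 0.030). Its call was lost in 5 of the 8 fits without 1 library. The number of members that fell was 4 without library 2 with Flt3-ITD and NHD13 or without library 1 with NHD13. Of 11 tested immediate early and stress genes, 2 fell and none rose. Egr1, a growth-factor-induced zinc-finger factor, stood at 1.48, 2.49, 0.85 and 1.33 CPM with Flt3-ITD and NHD13 and at 14.7, 18.3, 12.6 and 13.5 CPM with NHD13 (-3.25 ± 0.41, edgeR adjusted p = 6.3e-06). Nr4a1, an orphan nuclear receptor, fell by less (-0.87 ± 0.24, edgeR adjusted p = 0.028) and was lost in 4 of the 8 fits without 1 library.

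Interferon-stimulated genes leaned upward as a list, while few passed the test singly. Of 43 type I interferon-stimulated genes, 8 rose, none fell, and 42 had a positive log2 fold change, with a median of 0.65. Of all genes tested, 50.7% had a positive log2 fold change. In 31 of the 43, all 4 libraries with Flt3-ITD and NHD13 lay above all 4 with NHD13, and in none did all lie below. Over all genes tested the shares with every library above or below were 6.26% and 6.22%. The mean log2 CPM over the list was 6.94 to 7.22 with Flt3-ITD and NHD13 and 6.19 to 6.63 with NHD13. The count of calls depended on the model: 30 of the 43 rose when only the 8 libraries compared were fitted, 14 with DESeq2, and 4 with no filter on low counts. The fit of the 8 libraries called 7.29% of all genes, 3.32% higher and 3.97% lower, and DESeq2 called 3.28% higher and 4.51% lower. Without 1 library it was 3 to 6, and it was 3 without library 2 with Flt3-ITD and NHD13, and without library 1 or library 4 with NHD13.

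Ifitm3, a membrane protein that blocks virus entry, stood at 1243, 1199, 1109 and 1175 CPM with Flt3-ITD and NHD13 and at 519, 577, 588 and 548 CPM with NHD13 (1.08 ± 0.13, edgeR adjusted p = 3.9e-06). Bst2, which encodes the tethering factor tetherin, stood at 292, 290, 246 and 287 CPM with Flt3-ITD and NHD13, against 143, 182, 161 and 153 CPM with NHD13 (0.80 ± 0.15, edgeR adjusted p = 0.0013). Eif2ak2, the RNA-activated kinase PKR, rose by 0.54 ± 0.13 (edgeR adjusted p = 0.010). All 3 genes separated the groups, and Ifitm3 and Bst2 kept their calls in all 14 other settings tried. Rsad2 (viperin) stood at 139, 171, 137 and 161 CPM with Flt3-ITD and NHD13 and at 80.7, 73.6, 72.8 and 70.7 CPM with NHD13. Its libraries did not overlap, and its log2 fold change was 1.03 ± 0.28 (edgeR adjusted p = 0.032), but the call was lost in 7 of the 8 fits without 1 library, with an adjusted p of up to 0.0909.

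The remaining calls were Phf11d (1.46 ± 0.40), Cmpk2, a mitochondrial nucleotide kinase (1.02 ± 0.29), the antiviral RING protein gene Trim30a (0.47 ± 0.13) and Ddx58, the RNA sensor RIG-I (0.42 ± 0.12). Phf11d and Trim30a belong to families of near-identical copies, so their reads may be shared with relatives. Phf11d and Cmpk2 were each lost in 6 of the 8 fits without 1 library. Many classical members were above NHD13 in every library without passing. Isg15, a ubiquitin-like modifier, stood at 227, 235, 185 and 227 CPM with Flt3-ITD and NHD13 and at 82.6, 128, 103 and 103 CPM with NHD13 (1.07 ± 0.33, edgeR adjusted p = 0.0645). The same held for Irf7, the factor that amplifies interferon production (0.84 ± 0.38, adjusted p = 0.241), and for Mx1 (1.43 ± 0.50, adjusted p = 0.105). Irf9 (-0.01 ± 0.17, edgeR adjusted p = 0.988), a part of the complex that carries the interferon signal to the nucleus, overlapped between the groups.

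The windows of Ifitm3 and Rsad2 are shown as interferon-stimulated genes that rose, with the core of the interferon response element, GAAA and a second GAAA after any 2 bases, in capitals on either strand. The Ifitm3 window lies at chr7:141010695-141010994 and the Rsad2 window at chr12:26456403-26456702, both on the minus strand of GRCm38.p6 (RefSeq).
Ifitm3: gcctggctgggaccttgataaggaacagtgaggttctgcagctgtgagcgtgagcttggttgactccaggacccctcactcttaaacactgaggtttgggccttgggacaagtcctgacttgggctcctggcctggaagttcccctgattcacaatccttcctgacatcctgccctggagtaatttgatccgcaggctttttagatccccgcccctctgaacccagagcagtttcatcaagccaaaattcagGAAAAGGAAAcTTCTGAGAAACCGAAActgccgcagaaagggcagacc
Rsad2: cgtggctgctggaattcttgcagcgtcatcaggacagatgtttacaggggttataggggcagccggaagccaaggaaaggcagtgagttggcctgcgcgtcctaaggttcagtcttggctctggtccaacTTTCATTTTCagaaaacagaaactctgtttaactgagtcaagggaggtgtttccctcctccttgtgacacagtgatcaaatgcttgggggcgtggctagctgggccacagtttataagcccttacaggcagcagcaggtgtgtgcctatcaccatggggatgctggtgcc
The Ifitm3 window holds 2 such matches and, overlapping with one of them, 1 match of TTCNNNGAA, also in capitals, and the Rsad2 window holds 1. On the interferon list 31 of 43 genes had a window, and 17 of their 37 windows (45.9%) held that core, against 1131 of 32851 windows of all genes (3.44%). The list was drawn up from genes known to answer interferon, so this share describes the list and not the effect of Flt3-ITD.

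Genes of antigen presentation and of the interferon-gamma response followed with smaller changes. Of 24 tested members, 3 rose, none fell, and the median log2 fold change was 0.28. Gbp7, an interferon-induced GTPase, averaged 548 ± 27 CPM with Flt3-ITD and NHD13 and 378 ± 26 CPM with NHD13 (0.54 ± 0.10, edgeR adjusted p = 0.00055). Psmb8, a subunit of the immunoproteasome, rose by 0.38 ± 0.09 (edgeR adjusted p = 0.0057). Irf8, which directs monocytes and dendritic cells, rose by 0.70 ± 0.18 (edgeR adjusted p = 0.014), but not without library 2 with Flt3-ITD and NHD13 (0.65, adjusted p = 0.0511) or library 4 with NHD13 (0.62, adjusted p = 0.0657).

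**Figure D2:**
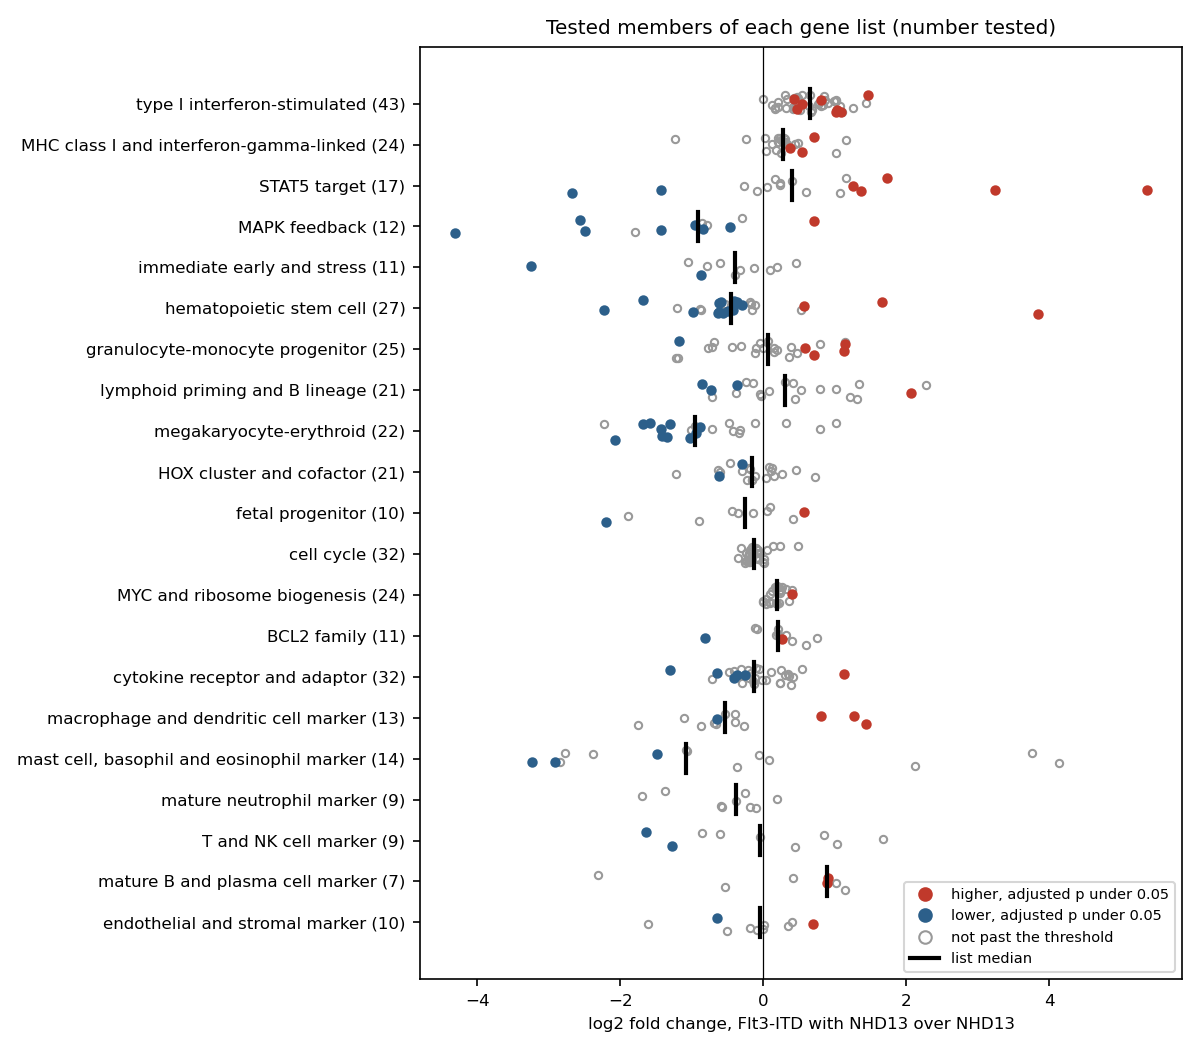
Log2 fold change of Flt3-ITD with NHD13 over NHD13 for the tested members of 21 gene lists, with filled points for members past an adjusted p of 0.05, open points for the others and a bar at each list's median. The interferon-stimulated members lie almost all right of zero (median 0.65), and the MAPK feedback, megakaryocyte-erythroid and mast cell members lie mostly left of it (medians -0.91, -0.95 and -1.08).

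Megakaryocyte and erythroid genes were lower with Flt3-ITD. Of 26 genes on the list 22 were tested, 10 fell and none rose, and the median log2 fold change was -0.95. The CPM of the list summed to 2092 to 2176 with Flt3-ITD and NHD13 and to 4557 to 5413 with NHD13, without overlap. The mean of this sum was also lower with Flt3-ITD (2348) than in wild type (5133). On the Runx1-heterozygous background it was 2209 with Flt3-ITD and 4190 without. The list medians of the Flt3-ITD effect there were -0.21 on wild type and -0.45 on the Runx1 background. In bulk samples fewer cells of a type and less RNA per cell cannot be told apart. The count that fell was 7 to 9 without 1 library. Gata1, the master factor of both lineages, stood at 42.1, 40.4, 24.7 and 33.8 CPM with Flt3-ITD and NHD13 and at 53.5, 63.9, 74.7 and 66.8 CPM with NHD13. The groups did not overlap (-0.88 ± 0.17, edgeR adjusted p = 0.0015). Car2, a carbonic anhydrase of red cell precursors, was by far the most abundant member, at 1203, 1054, 1106 and 1124 CPM with Flt3-ITD and NHD13 and at 2714, 3386, 2669 and 3207 CPM with NHD13 (-1.42 ± 0.10, edgeR adjusted p = 2.4e-10).

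On the erythroid side Hbb-bt, an adult beta-globin gene with a near-identical neighbor, averaged 63.3 ± 4.4 CPM with Flt3-ITD and NHD13 and 189 ± 28 CPM with NHD13 (-1.58 ± 0.21). Epor, the erythropoietin receptor (-1.30 ± 0.29), the water channel gene Aqp1 (-1.34 ± 0.28) and the lipid transporter gene Mfsd2b (-1.02 ± 0.22) also fell. Car1 fell by 2.08 ± 0.55 (edgeR adjusted p = 0.027), and lost its call in 5 of the 8 fits without 1 library. Klf1, an erythroid factor, lay below NHD13 in every library without passing (-0.95 ± 0.36, adjusted p = 0.125).

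For Pf4, Vwf and Itga2b the groups overlapped through library 2 with NHD13. Pf4, a platelet chemokine, stood at 90.9, 288, 172 and 250 CPM with Flt3-ITD and NHD13 and at 656, 158, 595 and 742 CPM with NHD13 (-1.42 ± 0.38, edgeR adjusted p = 0.028). Without library 2 with NHD13 its log2 fold change was -1.73 (adjusted p = 0.0010), and without each of 5 other libraries the call was lost, with an adjusted p of up to 0.102. Vwf, the von Willebrand factor of platelets, stood at 5.06, 13.2, 10.9 and 11.5 CPM with Flt3-ITD and NHD13 and at 36.2, 12.7, 43.8 and 39.0 CPM with NHD13 (-1.69 ± 0.30, edgeR adjusted p = 0.00069), and did not pass when the 8 libraries were fitted alone (edgeR adjusted p = 0.0718). Itga2b, the platelet integrin CD41, showed the same low library at 42.0 CPM against 100 to 120 CPM in the others with NHD13, and fell by 0.95 ± 0.24 (edgeR adjusted p = 0.016). The same NHD13 library was the highest of its group for the erythroid genes Klf1, at 6.5 CPM, and Ermap, at 26.2 CPM. By the values above it was also the highest for Car2 but not for Gata1. Klf1 and Ermap are examples chosen after their values were seen.

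Mast cell genes were lower with Flt3-ITD. The CPM of the mast cell, basophil and eosinophil list summed to 86.2 to 362 with Flt3-ITD and NHD13 and to 633 to 2009 with NHD13. Of its 14 tested members 3 fell and none rose, with a median log2 fold change of -1.08. Cpa3, the mast cell carboxypeptidase, stood at 32.7, 59.3, 18.3 and 16.9 CPM with Flt3-ITD and NHD13 and at 281, 368, 115 and 193 CPM with NHD13 (-2.91 ± 0.37, edgeR adjusted p = 3.8e-05). Cma1, a mast cell chymase, stood at 56.4, 121, 31.9 and 23.7 CPM with Flt3-ITD and NHD13 and at 544, 923, 252 and 474 CPM with NHD13 (-3.24 ± 0.67, edgeR adjusted p = 0.0051). Library 2 was the highest of both groups in both genes, and the groups did not overlap. Gzmb, a granule protease of mast and cytotoxic cells, fell by 1.49 ± 0.23. Without library 2 with Flt3-ITD and NHD13, 5 members fell.

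Eosinophil granule genes on the list did not pass. Prg2, the major basic protein, stood at 48.8, 15.7, 10.1 and 85.0 CPM with Flt3-ITD and NHD13 and at 4.29, 2.65, 2.43 and 2.47 CPM with NHD13 (3.76 ± 1.26, edgeR adjusted p = 0.0929). DESeq2 and the fit of the 8 libraries alone each called 2 members of this list higher. Of the 14 tested members, 10 had a negative log2 fold change and 4 a positive one, where 50.7% of all genes tested had a positive one. The list thus did not move as one. Its 3 called members fell, as did the called megakaryocyte-erythroid genes and most called stem cell genes. The part of mast cells in those results was not tested.

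Markers of other mature cells were mostly at low levels. Under 1 CPM in all 8 libraries were 8 of 15 T and NK cell genes, 5 of 12 mature neutrophil genes, 4 of 10 mature B and plasma cell genes and 5 of 17 macrophage and dendritic cell genes. Of the defining T and NK genes, Cd3e had 1 read and Cd8a 0 reads over the libraries with Flt3-ITD and NHD13, against 0 and 1 with NHD13, and Ncr1 had 0 in both groups. The mature neutrophil list summed to 18.7 to 29.7 CPM with Flt3-ITD and NHD13 and to 20.5 to 42.9 CPM with NHD13, and none of its 9 tested members passed with edgeR, with DESeq2 or at an unadjusted p under 0.05. The T and NK cell list summed to 89.5 to 113 CPM with Flt3-ITD and NHD13 and to 80.5 to 104 CPM with NHD13, and the receptor constant genes Trac (-1.28 ± 0.38) and Trbc2 (-1.63 ± 0.35) fell. The mature B and plasma cell list summed to 84.7 to 111 CPM with Flt3-ITD and NHD13 and to 37.4 to 65.3 CPM with NHD13. There Xbp1, a factor of secretory cells, rose by 0.89 ± 0.24 and Sdc1 (CD138) by 0.91 ± 0.21. Trac and Xbp1 were each lost in 6 of the 8 fits without 1 library. The macrophage and dendritic cell list summed to 1005 to 1035 CPM with Flt3-ITD and NHD13 and to 1095 to 1385 CPM with NHD13, most of it from Flt3. Of its 13 tested members 3 rose and 1 fell, with a median log2 fold change of -0.53. Those that rose were Adgre1 (F4/80, 1.44 ± 0.27), Clec10a (1.26 ± 0.22) and Bst2, and the one that fell was Flt3. The endothelial and stromal list summed to 190 to 216 CPM with Flt3-ITD and NHD13 and to 204 to 245 CPM with NHD13. Of its 10 tested members 1 rose and 1 fell, where 2.65% of all genes tested rose and 3.58% fell. Pecam1, which progenitors also express, fell by 0.65 ± 0.10. Pdgfrb, a platelet-derived growth factor receptor, rose by 0.69 ± 0.19 (edgeR adjusted p = 0.024), with the groups overlapping through library 3 with NHD13 at 58.2 CPM. The call of Pdgfrb was lost in 5 of the 8 fits without 1 library and when the 8 libraries were fitted alone. The part of these cell types in the results was not tested.

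**Figure D3:**
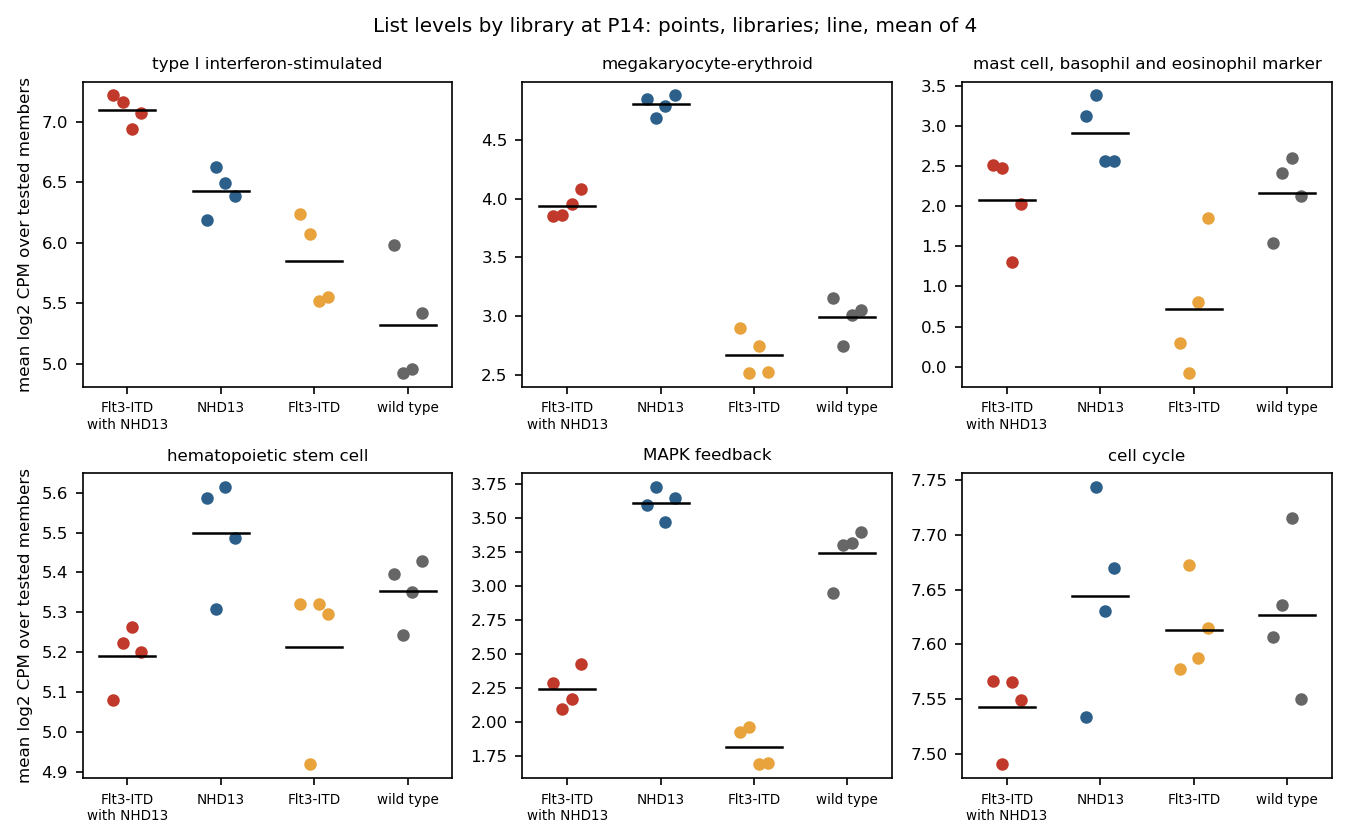
Mean log2 CPM over the tested members of 6 gene lists in each library of 4 groups at P14, with points for libraries and lines for means of 4. For the interferon list the libraries with Flt3-ITD and NHD13 (6.94 to 7.22) lie above those with NHD13 (6.19 to 6.63), and for the megakaryocyte-erythroid list (3.85 to 4.08 against 4.69 to 4.88) they lie below.

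Genes of hematopoietic stem cells fell more often than they rose. Of 27 tested members 14 fell and 3 rose, with a median log2 fold change of -0.45, and the mean log2 CPM over the list was 5.08 to 5.26 with Flt3-ITD and NHD13 and 5.31 to 5.61 with NHD13. The count that fell was 7 to 13 without 1 library, and it was lowest without library 3 with NHD13. Tek, which encodes the angiopoietin receptor TIE2, stood at 5.0, 4.0, 5.27 and 1.71 CPM with Flt3-ITD and NHD13 and at 22.1, 13.6, 19.9 and 18.3 CPM with NHD13. All libraries with the mutation were lower (-2.23 ± 0.27, edgeR adjusted p = 2.9e-06). Angpt1, its ligand, fell by 0.63 ± 0.14 (edgeR adjusted p = 0.0052). The chromatin reader gene Mllt3 averaged 45.9 ± 2.4 CPM with Flt3-ITD and NHD13 and 70.7 ± 2.6 CPM with NHD13 (-0.62 ± 0.11).

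The transcription factors Gata2 (-0.49 ± 0.12), Mecom (-0.41 ± 0.12) and Meis1 (-0.30 ± 0.09) fell by smaller amounts, as did the receptor gene Kit (-0.41 ± 0.12). Meis1 and Kit were each lost in 6 of the 8 fits without 1 library. The members that rose were Ifitm1, which is an interferon-inducible gene as well, Thy1 (1.66 ± 0.36) and Mycn (0.56 ± 0.17), and Mycn was lost in 7 of the 8 fits without 1 library. Ly6a, which encodes Sca-1 and is also induced by interferon, stood at 213, 196, 155 and 173 CPM with Flt3-ITD and NHD13 and at 112, 136, 138 and 123 CPM with NHD13 (0.53 ± 0.16, edgeR adjusted p = 0.054).

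Among granulocyte-monocyte genes 4 of 25 tested members rose and 1 fell, with a median of 0.06, where 2.65% of all genes tested rose and 3.58% fell. Csf2rb, the shared beta chain of the receptors for GM-CSF, IL-3 and IL-5, stood at 137, 162, 175 and 183 CPM with Flt3-ITD and NHD13 and at 65.1, 66.0, 95.5 and 72.9 CPM with NHD13 (1.13 ± 0.11, edgeR adjusted p = 5.6e-08). Spi1, which encodes the myeloid factor PU.1, stood at 27.8, 37.7, 37.5 and 38.6 CPM with Flt3-ITD and NHD13 and at 22.3, 13.6, 17.2 and 11.0 CPM with NHD13 (1.14 ± 0.27, edgeR adjusted p = 0.0097). Both genes separated the groups. The azurophil granule gene Prtn3 rose by 0.59 ± 0.15 and Irf8, named above, is also on this list, while the Fc receptor gene Fcgr3 fell by 1.18 ± 0.28. Prtn3 was lost in 3 of the 8 fits without 1 library. Fcgr3 was lost without library 2 with NHD13 (-0.92, adjusted p = 0.0668).

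Of 21 tested lymphoid genes 1 rose and 3 fell, where 2.65% of all genes tested rose and 3.58% fell. Vpreb1, a surrogate light chain gene of early B cells, rose by 2.06 ± 0.60 (edgeR adjusted p = 0.039), and lost the call in 6 of the 8 fits without 1 library. Il12a fell to 76.8, 91.6, 90.4 and 87.0 CPM with Flt3-ITD and NHD13, against 131, 163, 149 and 186 CPM with NHD13 (-0.86 ± 0.16, edgeR adjusted p = 0.00081). Mef2c, a factor of lymphoid-primed progenitors, fell by 0.37 ± 0.07, and Dntt, the terminal transferase, by 0.72 ± 0.20, where Dntt was lost in 5 of the 8 fits without 1 library.

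The NUP98 fusion is known to hold HOX genes active, and none of them passed between the groups. The median of the HOX and cofactor list was -0.16. Of its 21 tested members 2 fell, where 3.58% of all genes tested fell. The cofactor Meis1 was among these 2 members, and neither was a HOX gene. Hoxa9 stood at 123, 110, 126 and 101 CPM with Flt3-ITD and NHD13 and at 139, 148, 109 and 131 CPM with NHD13, with overlap (-0.20 ± 0.10, edgeR adjusted p = 0.323). Hoxa10 overlapped too (-0.19 ± 0.14, adjusted p = 0.508). Of the 10 tested fetal progenitor genes 1 fell and 1 rose, where 3.58% of all genes tested fell and 2.65% rose. Igf2, a fetal growth factor, stood at 0.12, 0.69, 1.13 and 0.61 CPM with Flt3-ITD and NHD13 and at 3.80, 3.59, 1.78 and 2.86 CPM with NHD13 (-2.20 ± 0.55, edgeR adjusted p = 0.013). Lin28b, an RNA-binding protein of the fetal program, averaged 56.1 ± 4.4 CPM with Flt3-ITD and NHD13 and 61.9 ± 1.5 CPM with NHD13 and did not pass (-0.14 ± 0.14, adjusted p = 0.651).

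None of the 32 genes on the cell cycle list passed with edgeR. With DESeq2 1 passed, up to 2 were lower in edgeR fits without 1 library, and at an unadjusted p under 0.05 edgeR had 1 higher and 11 lower. The median was -0.13. The proliferation marker Mki67 stood at 123, 139, 166 and 165 CPM with Flt3-ITD and NHD13 and at 181, 203, 195 and 180 CPM with NHD13 (-0.36 ± 0.14, edgeR adjusted p = 0.144). Of 24 genes of MYC and ribosome biogenesis, 22 had a positive log2 fold change, against 50.7% of all genes tested, with a median of 0.19. Only Ppan passed (0.40 ± 0.11, edgeR adjusted p = 0.023), with its call lost in 5 of the 8 fits without 1 library. Among 11 tested BCL2 family genes, Bcl2, which protects from apoptosis, stood at 13.2, 15.5, 11.3 and 12.5 CPM with Flt3-ITD and NHD13 and at 25.7, 23.98, 19.7 and 22.7 CPM with NHD13 (-0.81 ± 0.15, edgeR adjusted p = 0.00059). The death effector Bax rose by 0.27 ± 0.08 (edgeR adjusted p = 0.040), and lost the call in 7 of the 8 fits without 1 library. Of 32 tested cytokine receptors and adaptors 5 fell and 1 rose, where 3.58% of all genes tested fell and 2.65% rose. Csf2rb was the one that rose. Without 1 library 2 to 5 fell, with 2 when library 3 with NHD13 was left out. Among the 5 were Flt3, Kit, Epor and the kinase gene Jak1 (-0.25 ± 0.08).

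Where the mean CPM over the 8 libraries had a log2 of 2 or more, the largest decreases included that of Unc13c, a vesicle priming gene, at 2.53, 3.18, 3.30 and 2.66 CPM with Flt3-ITD and NHD13 and at 33.2, 24.8, 23.3 and 30.5 CPM with NHD13 (-3.25 ± 0.24, edgeR adjusted p = 8.9e-10). In wild type it averaged 0.022 CPM. Trib2, a pseudokinase gene that can drive myeloid leukemia in mice, averaged 6.57 ± 1.5 CPM with Flt3-ITD and NHD13 and 40.6 ± 3.5 CPM with NHD13 (-2.63 ± 0.37, edgeR adjusted p = 4.8e-05). The cadherin gene Cdh17 (-3.12 ± 0.52), the ganglioside synthase gene St8sia1 (-2.92 ± 0.36), the phospholipase gene Pla2g7 (-2.56 ± 0.48) and Slc45a3 (-2.53 ± 0.57) were also among them. Pla2g7 did not pass when only the 8 libraries compared were fitted (adjusted p = 0.0751).

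The same genes can be read beside NHD13 against wild type, a comparison that shares the 4 NHD13 libraries, so that the values stand side by side and the pair is no test. For the megakaryocyte-erythroid list, Flt3-ITD with NHD13 against NHD13 had no member higher and 10 lower with a median of -0.95, and NHD13 against wild type had 13 higher and 1 lower with a median of 1.34. The summed CPM of that list was not higher with NHD13, at 4557 to 5413 against 4872 to 5513 in wild type. For the interferon list, adding Flt3-ITD gave 8 higher, none lower and a median of 0.65, and NHD13 against wild type gave 33 higher, none lower and 0.91. For the STAT5 list, adding Flt3-ITD gave 5 higher and 2 lower, and NHD13 against wild type gave none higher and 8 lower, with medians of 0.40 and -0.32. For the HOX list, adding Flt3-ITD gave 2 lower and none higher, and NHD13 against wild type gave 15 higher and 1 lower. NHD13 against wild type called 15.9% of the genes tested, 7.12% higher and 8.75% lower. Cpa3 averaged 31.8 ± 19.7 CPM with Flt3-ITD and NHD13, 239 ± 110 CPM with NHD13 and 10.7 CPM in wild type. Gata1 was 2.53 ± 0.19 higher in NHD13 than in wild type on the log2 scale.

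Flt3-ITD was also compared with wild type and, on the Runx1-heterozygous background, with Runx1 heterozygosity alone, in libraries not shared with the NHD13 comparison. Flt3-ITD against wild type passed 1238 genes (8.6% of those tested) and its effect on the Runx1 background 2140 (14.9%, of which 6.69% higher and 8.18% lower). Of the 382 genes higher with Flt3-ITD and NHD13, 181 were also higher with Flt3-ITD against wild type, which is 47.4% of the 382 and 32.7% of the 553 higher there, and 2 were lower. Of the 516 lower genes, 232 were lower there too (45% of the 516 and 33.9% of 685), and 5 were higher. On the Runx1 background 190 and 273 of them moved the same way, and 15 and 14 the opposite way. Genes called in the same direction on all 3 backgrounds numbered 137 higher and 198 lower.

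The difference between the effect on NHD13 and the effect on wild type passed for 77 genes (0.535% of those tested). The log2 fold change was more positive on NHD13 for 37 of them and more negative for 40. The count of 77 became 47 with sex in the model, where 15 were more positive and 32 more negative, and 0 of 4 Flt3-ITD libraries were female against 3 of 4 in wild type. It was 40 without library 3 of wild type and 103 without library 1. For the Runx1 background the difference passed for 532 genes (3.7%, of which 2.16% more positive on NHD13 and 1.54% more negative), and 56 genes passed both.

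Cpa3, Timp3 and Bcl2 were among the genes whose effect was more negative on NHD13. Cpa3 had a log2 fold change of -2.91 on NHD13 and 0.44 on wild type, where it averaged 14.4 CPM with Flt3-ITD and 10.7 CPM in wild type, and the difference was -3.35 ± 0.52 (edgeR adjusted p = 0.0034). Timp3, an inhibitor of metalloproteinases, averaged 10.6 CPM with Flt3-ITD and NHD13 and 30.8 CPM with NHD13, and 10.8 CPM with Flt3-ITD and 1.72 CPM in wild type. The difference of effects was -4.15 ± 0.54 (edgeR adjusted p = 0.00051), and on NHD13 the gene's groups overlapped through library 2 with NHD13 at 11.3 CPM. Bcl2 averaged 13.1 CPM with Flt3-ITD and NHD13 and 23.02 CPM with NHD13, and 47.6 CPM with Flt3-ITD and 31.8 CPM in wild type, so that its sign differed between the backgrounds (difference -1.39 ± 0.21, edgeR adjusted p = 0.00051).

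Ctsg, the neutrophil protease cathepsin G, averaged 23.1 CPM with Flt3-ITD and NHD13 and 20.2 CPM with NHD13, and 69.9 CPM with Flt3-ITD and 8.87 CPM in wild type (difference -2.80 ± 0.56, edgeR adjusted p = 0.027). Irf8 rose on both backgrounds and by less on NHD13 (difference -1.07 ± 0.25, edgeR adjusted p = 0.047), and the effect on Tek was more negative on NHD13 (-1.57, edgeR adjusted p = 0.043). Ctsg was lost in 6 of the 16 fits without 1 library.

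Ifitm1 rose more on NHD13, where it averaged 670 CPM with Flt3-ITD and NHD13 and 46.8 CPM with NHD13, than on wild type, where it averaged 1970 CPM with Flt3-ITD and 293 CPM in wild type (difference 1.09 ± 0.15, edgeR adjusted p = 0.00031). Gem, a small GTP-binding protein gene, fell on both, to 112 CPM with Flt3-ITD and NHD13 against 290 CPM with NHD13, and to 12.1 CPM with Flt3-ITD against 153 CPM in wild type (difference 2.30 ± 0.24, edgeR adjusted p = 1.5e-05). Prg2 had the largest difference among the named genes, 8.68 ± 1.74 (edgeR adjusted p = 0.029), with 10.1 CPM with Flt3-ITD and 300.1 CPM in wild type, and lost its call in 9 of the 16 fits without 1 library.

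**Figure D4:**
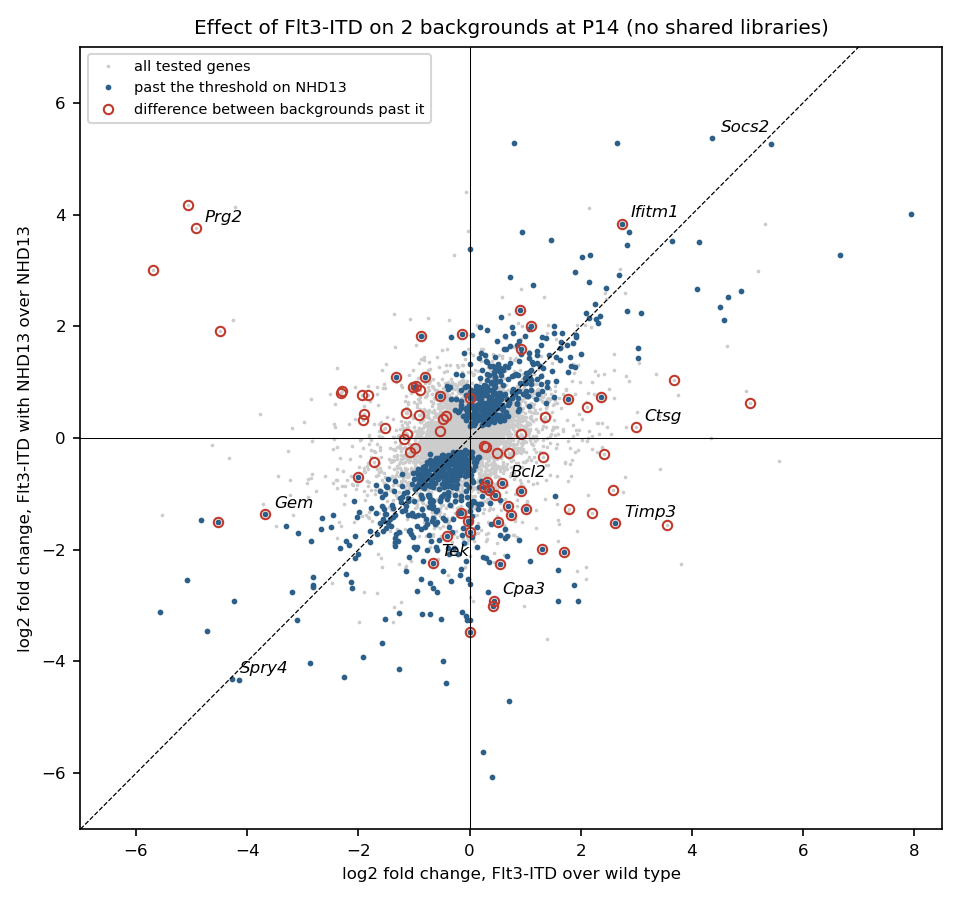
Log2 fold change of Flt3-ITD with NHD13 over NHD13 against that of Flt3-ITD over wild type for all tested genes, with filled blue points for the 898 past the threshold on NHD13 and red rings for the 77 whose difference passed. The dashed line marks equal effects, 1 gene lies outside the axes, and Socs2 and Spry4 lie near the line while Cpa3, Timp3 and Prg2 lie far from it.

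**Figure D5:**
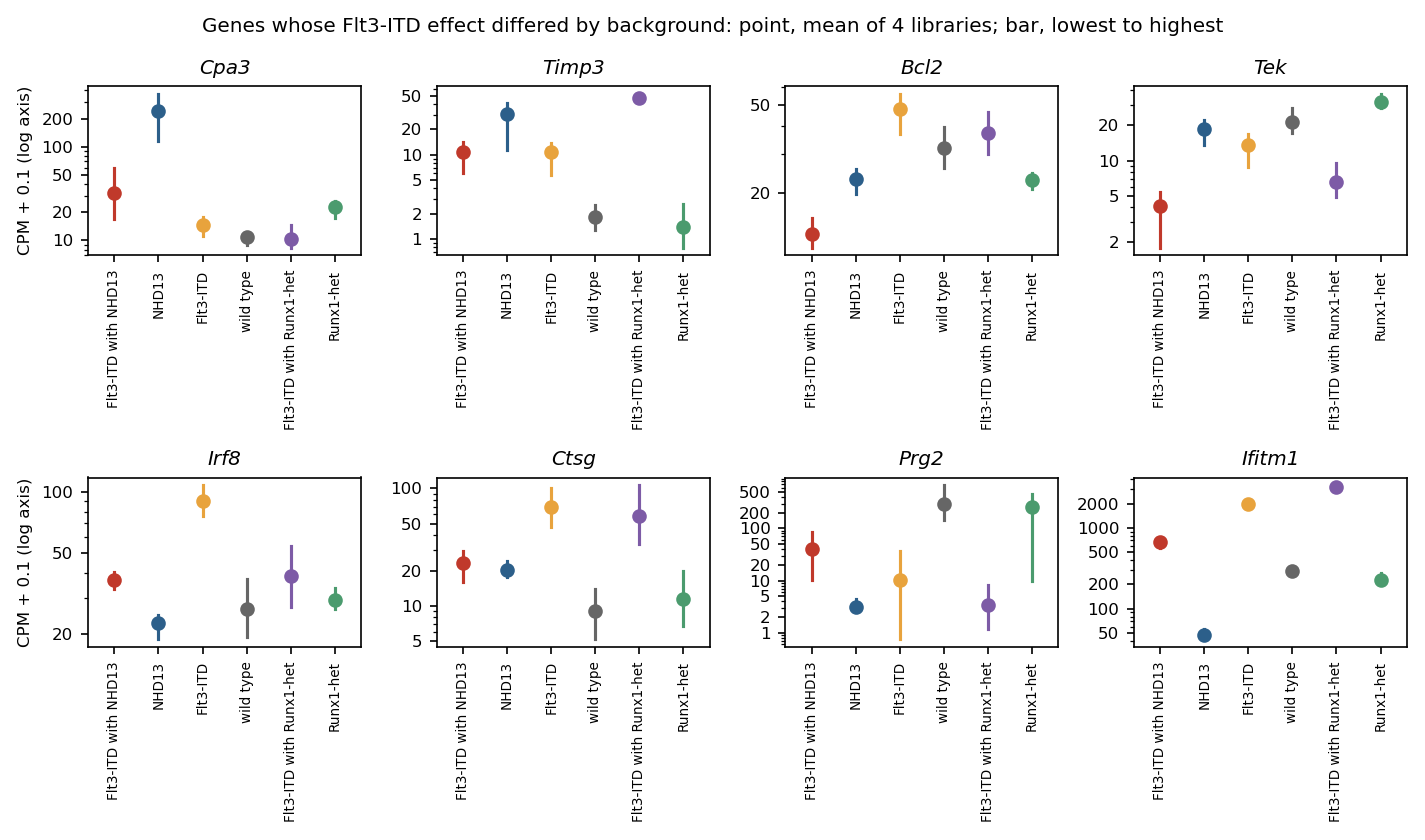
CPM plus 0.1 on a log axis for 8 genes in the 6 groups at P14, with a point for the mean of 4 libraries and a bar from the lowest to the highest. Cpa3 is high with NHD13 alone (mean 239 CPM) and lower in the other 5 groups, and Bcl2 is lower with Flt3-ITD and NHD13 (13.1 CPM) than with NHD13 (23.02 CPM) but higher with Flt3-ITD (47.6 CPM) than in wild type (31.8 CPM).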

How the data were processed

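RNA sequencing of mouse hematopoietic progenitors was used. Total RNA was isolated on a micro column of Qiagen and amplified by the Clontech SMART chemistry, per the labels' protocols. The authors deposited an unnormalized count of reads for each Ensembl gene ID, and STAR 3.0.4, Subread and featureCounts 1.4.5 are named in the submitters' processing notes. The build, annotation and strand setting behind the counts are not given in the sources used here, so reads of overlapping and antisense genes may be mixed. GENCODE M21 (GRCm38) gave symbols and coordinates by gene ID, with 40340 of 41388 IDs matched.

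All 24 P14 libraries, 4 in each of 6 groups, were fitted with edgeR 4.0.16 in R 4.3.3 (filterByExpr, TMM normalization, robust quasi-likelihood fit and F test, 1 mean per group), which gave a biological coefficient of variation of 0.164. The filter kept 14394 genes with 99.9% of the counts. The comparison is a contrast of 2 groups, and a difference between backgrounds is a difference of 2 such contrasts. Adjusted p-values are Benjamini-Hochberg over all tested genes, and CPM uses TMM library sizes. SE is the absolute log2 fold change divided by the square root of the quasi-likelihood F statistic. It is an approximate standard error, and is rough where counts are low. The mean level of a list is the mean log2 CPM with a prior count of 2. The 12 pairs of libraries within the 2 groups compared differed by more than counting error (chi-square per degree of freedom at least 10.2), so none were copies. The code was tested on simulated data.

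Genes named are the defining genes of the genotypes, the 12 largest changes in each direction whose groups did not overlap and whose mean CPM over the 8 libraries had a log2 of 2 or more, up to 4 passing genes per list and direction, 6 per difference and direction, and others of the lists named as examples after their values were seen. The members and the lists were chosen with earlier results of these data known. Alternatives tried were DESeq2 1.42.0, its size factors in edgeR, no filter, a sex term, a replicate block, the 8 libraries alone and each library left out. Replicate numbers do not mark shared litters or days in the labels. The 8 libraries compared held 16.6 to 26.3 M counts each.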

Additional observations from a re-analysis of the deposited data

Results flagged for a closer look

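Of 228 sets of 4 libraries examined, 19 held a library far from the other 3, and chance alone marks about 1 in 20 such sets. In library 1 with Flt3-ITD and NHD13 these were Cd79a at 10.3 CPM, Dusp6 at 83.5 CPM, Ppan at 52.7 CPM, Rab44 at 9.82 CPM and Spi1 at 27.8 CPM. The other libraries with Flt3-ITD and NHD13 that stood far from their group were library 4 for Adgre1, at 12.8 CPM, library 3 for Bst2, at 246 CPM, and library 2 for the mean log2 CPM of the immediate early and stress list, at 2.53. In library 2 with NHD13 they were Clec10a at 11.5 CPM, Fcgr3 at 10.6 CPM, Ly6d at 0.385 CPM, Pf4 at 158 CPM, Spry4 at 12.99 CPM and Vwf at 12.7 CPM. In library 1 with NHD13 they were Flt3 at 863 CPM, Prg2 at 4.29 CPM and Xbp1 at 54.7 CPM, and in library 3 with NHD13 they were Hbb-bt at 147 CPM and Pdgfrb at 58.2 CPM.

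The effect of Flt3-ITD on NHD13 minus its effect on wild type passed edgeR's test for 77 genes (0.535% of those tested), of which 21 are named. Up to 6 in each direction were named because they passed, so the number of named genes is no result. On the log2 scale this signed difference was positive for Prg2 (8.68), Ccr9 (3.11), Gria2 (2.71), Bank1 (2.60), Hoxb5os (2.41), Gem (2.30), Sdc1 (1.93), Prr5l (1.38), Ifitm1 (1.09) and Kcnk5 (0.90). A positive value need not mean a larger change on NHD13, since Gem fell on both backgrounds and by less on NHD13. The difference was negative for Timp3 (-4.15), Cpa3 (-3.35), Sparc (-3.05), Ctsg (-2.80), Kcnip3 (-2.80), Chst2 (-2.30), Ehd3 (-1.92), Tek (-1.57), Gzmb (-1.46), Bcl2 (-1.39) and Irf8 (-1.07). Hoxb5os lost its call in 15 of 16 fits without 1 library, Sparc in 12, Prg2 in 9, Ctsg in 6 and Bank1 in 2. With a sex term Ctsg, Hoxb5os and Prg2 lost the call, as did Hoxb5os with the replicate block and Sparc with no filter. The differences of Sdc1, Prr5l, Ifitm1, Kcnk5, Ehd3, Tek, Gzmb, Bcl2 and Irf8 were not recomputed singly.

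Against the effect on the Runx1-heterozygous background, the difference passed for 532 genes (3.7% of those tested). The 6 highest and 6 lowest of them under the naming rule are given here, so their number is no result. The difference was positive for Prg2 (10.05) and for the lymphoid genes Ly6d (8.21), Cd79a (8.12), Igll1 (7.97) and Il7r (7.49), and for Gfra2 (7.73). It was negative for Timp3 (-6.69), Sparc (-5.55), Chst2 (-3.88), Ehd3 (-2.93), Adgre1 (-2.92) and Ltf (-2.91). Il7r averaged 6.76 CPM with Flt3-ITD and NHD13 and 11.1 CPM with NHD13, and 0.11 CPM with Flt3-ITD and Runx1 heterozygosity and 33.4 CPM with Runx1 heterozygosity alone. The larger change of Il7r was thus its fall on the Runx1-heterozygous background. Of the 21 tested genes of the lymphoid list, 20 were lower with Flt3-ITD on that background (median -3.36), where 8.18% of all genes tested were lower. On NHD13, 1 of the 21 rose and 3 fell. A positive difference for a lymphoid gene therefore need not mean a rise on NHD13.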

How the results depend on the processing

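For Flt3-ITD with NHD13 against NHD13, 898 genes passed, and 900 with DESeq2's size factors, 756 with no filter, 1121 with DESeq2, 878 with a sex term, 984 in the 8 libraries alone (773 shared with the 898) and 624 to 880 without 1 library, fewest without library 4 with NHD13. With the replicate number as a block 876 passed, 831 of them shared. The numbers do not pair the libraries: same-numbered libraries correlated at -0.08 to 0.07 in their deviations from the group means. No recomputed value of a called result changed sign. Of 76 passing genes recomputed singly, 49 passed under every alternative and 9 were lost only when 1 library was left out.

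The difference between the NHD13 and wild-type backgrounds passed for 77 genes, 165 with DESeq2 and 47 with a sex term, and for 40 to 103 without 1 library. It was 50 and 49 without library 3 or 4 with Flt3-ITD, 46 and 41 without library 3 or 4 with Flt3-ITD and NHD13, and 41 without library 4 with NHD13. Flt3-ITD against wild type passed 1238 genes, 691 with a sex term, and 767 (without library 3 of wild type) to 1738 (without library 1) without 1 library. The difference from the Runx1 background passed for 532 genes and 434 to 669 without 1 library. The cause of these shifts was not tested. Genes under 1 CPM, such as Socs1 in both groups, rest on few reads.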

Other observations

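Some platelet and mast cell genes outside the lists were lower with Flt3-ITD. They were chosen after their values were seen, so they are examples and add no support to the list results. Selp, which encodes P-selectin of platelets and endothelium, stood at 1.05, 1.59, 1.22 and 1.52 CPM with Flt3-ITD and NHD13 and at 4.98, 4.32, 6.68 and 5.05 CPM with NHD13 (-1.95 ± 0.23, edgeR adjusted p = 1.1e-06). Gp1ba, a chain of the platelet receptor for von Willebrand factor, stood at 6.17, 5.33, 6.21 and 9.99 CPM with Flt3-ITD and NHD13 and at 18.6, 17.3, 24.8 and 23.8 CPM with NHD13 (-1.60 ± 0.21). The groups did not overlap for either gene, while for Gp9, a platelet receptor chain on the megakaryocyte-erythroid list, they did (-0.43 ± 0.20, edgeR adjusted p = 0.256). Hdc, the enzyme that makes histamine, stood at 15.6, 11.4, 5.6 and 6.42 CPM with Flt3-ITD and NHD13 and at 42.9, 53.3, 21.3 and 21.3 CPM with NHD13 (-1.84 ± 0.36, edgeR adjusted p = 0.0023).

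Further genes outside the lists, likewise chosen after their values were seen, were Slfn2, an interferon-inducible Schlafen gene, Irs1, an adaptor of insulin receptor signaling, and Etv1, an ETS factor. Slfn2 stood at 123, 121, 91.6 and 122 CPM with Flt3-ITD and NHD13 and at 29.6, 40.6, 25.9 and 31.0 CPM with NHD13 (1.85 ± 0.24, edgeR adjusted p = 2.6e-05). Irs1 stood at 4.20, 7.27, 8.33 and 6.46 CPM with Flt3-ITD and NHD13 and at 0.99, 0.94, 0.84 and 0.79 CPM with NHD13 (2.88 ± 0.38). Etv1 stood at 0.49, 0.77, 0.52 and 0.49 CPM with Flt3-ITD and NHD13 and at 2.66, 4.96, 3.15 and 3.98 CPM with NHD13 (-2.67 ± 0.30).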
